A study of Mus musculus with 4 samples.

Results

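The regions described here are weak H3K4me3 peaks that lie between genes, far from every annotated promoter. H3K4me3, trimethylation of lysine 4 of histone H3, was mapped by chromatin immunoprecipitation and sequencing in gastrocnemius, a large fast-twitch calf muscle, of adult female B6CASTF1/J mice aged 2 months, the first-generation hybrid of C57BL/6J and CAST/EiJ. The 4 libraries came from 2 pools of muscle, named E (biological replicate 1) and F (biological replicate 2). Tissue of 2 biosamples went into each pool, from which 2 technical libraries of 200 to 600 bp fragments were sequenced. Every library had the same genotype, sex, age and tissue, so the data hold no contrast between conditions, and the lists give values per pool and not per library. The regions were all peaks of the replicated mm10 list on the 19 autosomes that had a signal value under 20, lay over 5000 bp from every GENCODE transcription start site (TSS) and overlapped no annotated gene body. The rule took 5404 of the 41955 replicated peaks, which is 13.2% of the 41009 autosomal ones.

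Trimethylation of lysine 4 is written by the SET1 and MLL complexes and is best known as the mark of active and poised promoters, above all those rich in CpG dinucleotides. Enhancers mostly carry the monomethylated form, and low levels of the trimethylated form are found at some active enhancers and at the starts of unannotated or short-lived transcripts. Whether a weak peak between genes is one of these cannot be read from a peak list, which holds neither RNA nor other marks.

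The 4 sequences below are examples from the stronger regions and not a sample of all of them. Their peaks had signal values of 17.53 (Lbx1), 7.446 (Myh2), 15.2 (Tpm1) and 18.67 (Scrt2), against a median of 4.98 over all the regions. Each is the plus strand of GRCm38, taken from the RefSeq assembly GRCm38.p6, which has the coordinates of mm10, and spans 300 bp centred on the peak summit. The first set lay near muscle genes. Capitals mark CpG dinucleotides in the regions near Lbx1 (chr19:45208129-45208428) and Myh2 (chr11:67141808-67142107, an example chosen after its values were seen).
Lbx1: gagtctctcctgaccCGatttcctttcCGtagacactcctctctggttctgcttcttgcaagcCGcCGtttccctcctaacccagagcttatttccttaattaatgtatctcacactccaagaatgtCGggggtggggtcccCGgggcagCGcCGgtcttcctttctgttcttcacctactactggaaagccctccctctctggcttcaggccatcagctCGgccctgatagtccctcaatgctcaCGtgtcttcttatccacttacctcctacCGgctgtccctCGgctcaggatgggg
Myh2: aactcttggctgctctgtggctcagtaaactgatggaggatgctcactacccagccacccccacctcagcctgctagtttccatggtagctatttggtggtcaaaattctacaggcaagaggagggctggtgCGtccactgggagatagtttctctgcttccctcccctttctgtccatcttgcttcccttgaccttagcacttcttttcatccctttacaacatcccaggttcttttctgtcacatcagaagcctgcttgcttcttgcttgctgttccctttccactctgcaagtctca
The Lbx1 window held 12 CpG dinucleotides and the Myh2 window 1. Capitals mark the E-box CAGCTG, a sequence read by MyoD-family factors, in the region near Tpm1 (chr9:67013032-67013331). This window held 1 such E-box.
Tpm1: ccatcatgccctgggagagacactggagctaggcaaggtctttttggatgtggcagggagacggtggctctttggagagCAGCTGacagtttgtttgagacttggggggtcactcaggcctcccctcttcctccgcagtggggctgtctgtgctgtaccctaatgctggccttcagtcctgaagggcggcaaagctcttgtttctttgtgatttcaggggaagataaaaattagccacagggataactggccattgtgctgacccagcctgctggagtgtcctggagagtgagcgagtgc
The last window, near Scrt2 (chr2:152048737-152049036), had one of the highest ratios of observed to expected CpG among the regions (1.08), and its capitals mark 37 CpG dinucleotides.
Scrt2: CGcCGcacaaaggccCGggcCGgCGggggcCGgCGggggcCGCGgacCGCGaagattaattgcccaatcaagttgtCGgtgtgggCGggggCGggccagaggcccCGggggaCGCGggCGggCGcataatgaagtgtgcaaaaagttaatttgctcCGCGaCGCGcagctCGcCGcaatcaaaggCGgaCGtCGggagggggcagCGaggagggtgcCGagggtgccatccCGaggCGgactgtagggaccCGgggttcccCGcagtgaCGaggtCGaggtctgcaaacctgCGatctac

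The weak intergenic peaks covered 3.35 Mb and were narrow, with widths of 534 bp at the median, 347 to 785 bp for the middle 50% and 5806 bp at most. Their median signal value, which the rule used, was 4.98 (interquartile range 3.65 to 8.17). The signal value is the authors' own number per peak, and here it only describes, ranks or filters peaks within a list. The members nearest below the threshold lay near Sox12, Nnmt and Inhba with signal values of 19.998, 19.977 and 19.903, and the intergenic peaks nearest above it lay near Fam20b, Gpx5 and Ccdc88b with 20.09 each. At the distance threshold, the members nearest to a TSS of any gene lay 5003 bp (near Fam209) and 5013 bp (near Cul4a) from it, and the peaks nearest inside the limit, near Sub1, Apobec2 and Txn2, lay 4998, 4990 and 4986 bp from one. The gene-body peaks of the same strength numbered 8751, the weak peaks within 1000 bp of a TSS 6401, those farther out but within 5000 bp of a TSS 6689, and the intergenic peaks with signal values of 20 or more 533. Of the fast fibre genes 16 of 16, and of the sarcomere genes 49 of 49, had a replicated peak within 1000 bp of a TSS, against 70.0% of all coding genes. Genes of other cells in muscle were marked as well (endothelial 15 of 15, smooth muscle and pericyte 10 of 10, macrophage 11 of 12), as were 9 of 12 neuron genes. Adipocyte genes had 5 of 10 marked, lymphocyte genes 5 of 12 and hepatocyte genes 1 of 12. These lists were chosen with earlier results of these data known, so the counts are no independent check of the tissue.

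Most weak intergenic peaks were overlapped by a peak of each pool's own list. The replicated list was made from the alignments of both pools, so this overlap is partly built in and is no independent recovery. A peak of each pool overlapped 4221 of the 5404 members by at least 1 bp, a share of 78.1% (95% Wilson interval 77.0 to 79.2%, which covers counting error only). The share over all autosomal replicated peaks was 83.7%, and over all those with signal values under 20 it was 75.5%. Pool E alone overlapped 493 members (9.12%), pool F alone 376 (6.96%), and neither pool overlapped 314 (5.81%). The weak gene-body peaks had a lower share in both pools, 72.3% (71.4 to 73.3%), and all 533 strong intergenic peaks were overlapped in both. Since the rule used the signal value, which moves with support, these shares describe the regions and are no test of them.

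Signal value and support moved together. Of the members with signal values under 3, 145 of 596 (24.3%, 21.1 to 27.9%) were overlapped in both pools, of those from 3 to 5 it was 1407 of 2120 (66.4%), of those from 5 to 10 it was 1716 of 1735 (98.9%), and of those from 10 to 20 it was 953 of 953. Within the same ranges the weak gene-body peaks had 25.3%, 67.7%, 98.9% and 100%, and the intervals of both classes overlapped in every range. The lower overall share of the gene-body peaks stood beside a lower median signal value of 4.22, against 4.98 for the intergenic ones.

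**Figure D1:**
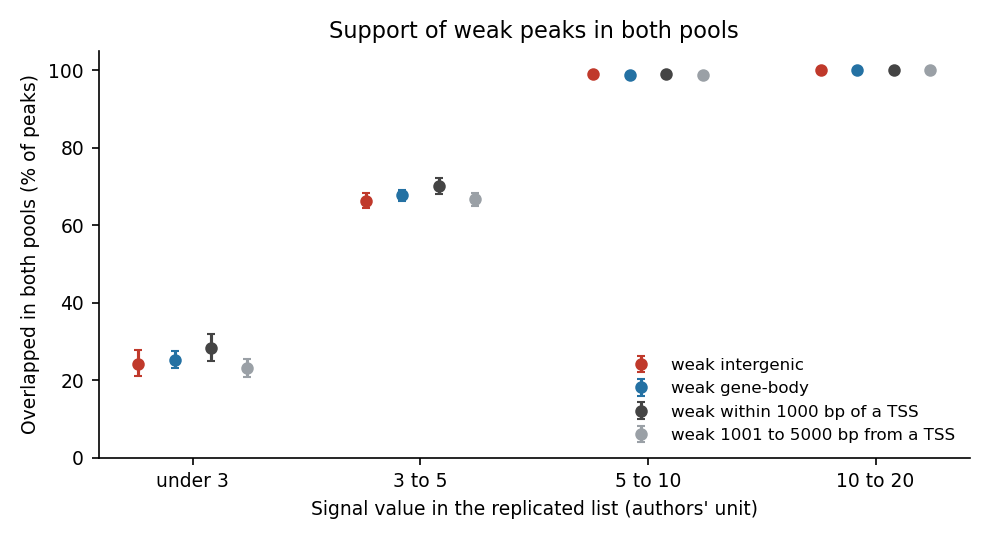
Share of weak peaks (y axis, percent) overlapped by at least 1 bp in both pools, by range of the authors' signal value in the replicated list (x axis), for weak intergenic peaks and 3 other classes of weak peaks. Points are shares and bars 95% Wilson intervals; intergenic peaks run from 24.3% under 3 to 100% from 10 to 20, close to the other classes in each range.

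The summits of overlapping peaks in both pools can be compared only where the peaks overlap, which already limits their distance. For the 4221 members overlapped in both, the summits in pool E and pool F lay a median of 40 bp apart, and 89.8% lay within 200 bp. The weak gene-body peaks had a median of 57 bp and 80.9% within 200 bp. Signal values of the members in pool E and pool F had a Spearman rho of 0.86 across these 4221 regions, which share their 2 libraries per pool and are not independent replicates. Pool E gave the higher median signal value (7.065 against 5.61 in pool F) and the wider median peak (668 bp against 537 bp). Values given per pool below belong to the pool's strongest overlapping peak, which could span more than 1 member, so neighbouring members can carry the same pool value. The members overlapped in neither pool were short and weak, with a median width of 244 bp and signal values of at most 4.60. Of these 314 peaks, 177 had the identical position in the pooled list, and 31 had a deposited q-value above 0.05. Over all 5404 members, 66 (1.22%) had such a q-value.

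The weak intergenic peaks lay closer to coding genes than the sequence open to them. Their summits had a median distance of 38216 bp to the nearest protein-coding TSS (interquartile range 17364 to 93253 bp, lowest 5146 bp, highest 1649597 bp). Eligible sequence, the 1047 Mb of autosomal bases that are over 5000 bp from every TSS and outside every gene body, had a median distance of 135150 bp. Within 50 kb of a coding TSS lay 58.4% of the members (57.0 to 59.7%), against 30.0% of eligible sequence. The 533 strong intergenic peaks lay closer still, with a median of 25500 bp and 75.05% within 50 kb.

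Per Mb of eligible sequence there were 5.16 weak intergenic peaks on average. The density was 10.1 per Mb at 5 to 10 kb from a coding TSS, 10.2 at 10 to 20 kb and 9.92 at 20 to 50 kb. It was 7.06 per Mb at 50 to 100 kb, 4.19 at 100 to 200 kb, 2.10 at 200 to 500 kb, 0.545 at 500 to 1000 kb and 0.112 beyond 1000 kb. The regions were thus about as dense at 20 to 50 kb from a coding start as next to the inner limit of the rule, and thinned out beyond. Between chromosomes the density ranged from 3.85 per Mb on chromosome 16 to 8.47 on chromosome 11.

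Members lay mainly beside genes whose own promoter carried the mark. A coding gene was called marked when a replicated peak lay within 1000 bp of one of its TSSs, which held for 70.0% of the 20807 autosomal coding genes. The nearest coding gene was marked for 4791 members (88.7%, 87.8 to 89.5%), against 74.95% of eligible sequence. At 5 to 10 kb from a coding TSS the density of members was 14.4 per Mb beside marked genes and 2.995 per Mb beside unmarked genes. At 20 to 50 kb these densities were 12.5 and 3.54 per Mb, and at 200 to 500 kb 2.35 and 1.22 per Mb. Among marked genes the density followed the signal value of the promoter, with 8.81 members per Mb in the highest of 4 groups of about equal size. It was 7.11 and 5.94 in the next groups and 3.85 in the lowest, while unmarked genes had 2.34. The share of genes nearest to at least 1 member differed little between these groups, from 17.5% in the lowest to 19.8% in the highest. The lowest group had 262.5 Mb of eligible sequence and the highest 167.2 Mb, so the densities differ partly through the sequence they are divided by. The peaks between genes and those at promoters come from the same libraries. The side of the TSS made no visible difference: 57.8% of members (56.4 to 59.1%) lay upstream, against 57.9% of eligible sequence.

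**Figure D2:**
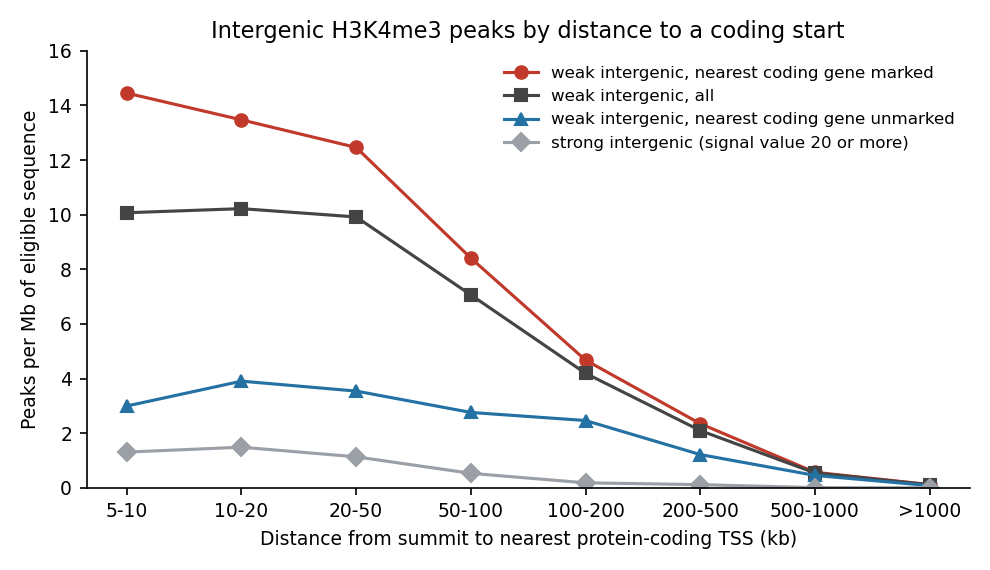
Peaks per Mb of eligible sequence (y axis) by distance from the peak summit to the nearest protein-coding TSS (x axis, kb), for weak intergenic peaks beside marked genes, all weak intergenic peaks, weak intergenic peaks beside unmarked genes, and strong intergenic peaks. At 5 to 10 kb the densities were 14.4, 10.1, 2.995 and 1.31 per Mb; points have no error bars because each is a count over the whole genome.

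In all, 3063 of 20807 coding genes (14.7%) were the nearest gene to at least 1 member. Of these, 1854 genes had exactly 1 member and 131 had 5 or more. Adgrl2, an adhesion G protein-coupled receptor of the latrophilin family, had 20 members in 1771 kb of eligible sequence, 19 of them overlapped in both pools. Med13l, a subunit of the Mediator kinase module, had 16, of which 11 were overlapped in both pools. Ntsr2, a neurotensin receptor, Map3k1, a kinase upstream of JNK signalling, Lrig3 and Mpdz had 11 each. For Ntsr2 these lay in 20.4 kb of eligible sequence, 540 per Mb, and for Map3k1 in 180 kb, 61.1 per Mb. The large eligible sequence of Adgrl2 gave 11.3 per Mb, about that of the muscle genes below.

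By kind of nearest gene, receptors of smell and taste were rare and developmental regulators frequent. Olfactory, vomeronasal and taste receptor genes were nearest to 31 members (0.574%), against 2.23% of eligible sequence, and 6 of these 1510 genes were marked. Homeobox and other developmental factor genes, chosen by symbol, were nearest to 192 members (3.55%), against 2.18% of eligible sequence. A member was nearest to 82 of these 205 genes (40.0%, against 14.7% of all coding genes), at 8.40 members per Mb. These genes also had more eligible sequence, a median of 31.17 kb per gene against 7.225 kb for all coding genes. Zinc finger genes had 110 members (2.04% against 1.49%), and predicted or clone-named genes 243 (4.50% against 7.999%). The remaining 4828 members (89.3%, against 86.1% of eligible sequence) lay beside other named genes. Restricted to marked genes, the densities were 8.37 per Mb beside developmental factors, 7.94 beside zinc finger genes, 5.90 beside predicted genes and 6.01 beside other named genes.

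When genes of any kind were counted, coding genes were nearest more often, and processed pseudogenes less often, than in eligible sequence. The nearest TSS of any kind lay a median of 18760 bp from the summit. It belonged to a protein-coding gene for 39.3% of members, against 24.3% of eligible sequence, and to a long intergenic non-coding RNA (lincRNA) gene for 22.1%, against 17.9%. A processed pseudogene was nearest for 18.8% of members, against 33.2% of eligible sequence. RefSeq, which the rule did not use, holds further transcripts. Of the 5404 members, 406 (7.51%, 6.84 to 8.25%) lay within 1000 bp of a RefSeq TSS, against 127 of the 533 strong intergenic peaks. A RefSeq gene overlapped 969 members (17.9%), in 822 overlaps a long non-coding RNA and in 169 a protein-coding gene. The members at RefSeq starts had a median signal value of 5.975 and 85.5% (81.7 to 88.6%) were overlapped in both pools, against 4.96 and 77.5% (76.3 to 78.7%) of the other members. The highest of them, near Lgi1, had a signal value of 19.9 (23.5 in pool E and 16.95 in pool F) and lay on the start of the predicted RNA Gm32491. When the rule was applied to RefSeq genes and TSSs as well, 4149 of the 5404 members were left, so for the rest the description "far from promoters and between genes" holds for GENCODE and not for RefSeq. Among the members near muscle genes named in the following, the one near Mymx (Gm52283), the highest near Tpm1 (Gm30639) and both near Spry1 (Gm46799) and Chrna1 (Gm30940) lay within 1000 bp of the RefSeq start of a predicted gene. The same held for a pair of the Myh2 members (Gm31285) and the nearer Myod1 member (Gm45923).

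Genes of the muscle lists, which also hold regulators such as Maf and Zfp36l1, were nearest to members more often than coding genes as a whole. Of the 191 autosomal genes of the 7 muscle lists, 60 (31.4%) were nearest to at least 1 member, against 14.7% of all coding genes, and together they had 132 members, or 11.7 per Mb of eligible sequence against 5.16. Nearly all of these genes were marked (187 of 191). Of all marked genes 18.3% were nearest to at least 1 member, and together they had 6.10 members per Mb. The median eligible sequence per gene was 10.9 kb in the muscle lists, against 6.25 kb for all marked genes. The lists were chosen with earlier results of these data known, so these shares are descriptive only. Of the 132 members, 98 (74.2%, 66.2 to 80.9%) were overlapped in both pools. The lists of other cell types had 39 of 120 genes (32.5%) and 8.84 members per Mb, so the share of genes with a member was as high there as in the muscle lists. Endothelial genes had 10 of 15 genes with a member and 21 members (16.1 per Mb), and genes of fibroblasts and fibro-adipogenic progenitors 12 of 21 genes and 36 members (11.9 per Mb). Whole muscle contains these cells, and a peak list cannot assign a region to one of them. Lymphocyte and macrophage lists had 1 of 12 genes each at 3.93 and 4.98 per Mb, and neuron and hepatocyte lists 2 of 12 each at 2.23 and 1.54 per Mb. Adipocyte genes had 4 of 10 genes with a member and 6 members, 38.1 per Mb in 0.158 Mb of eligible sequence. Genes of limb position had 5 of 16 genes (7.63 per Mb), and genes of smooth muscle and pericytes 2 of 10 (14.4 per Mb).

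**Figure D3:**
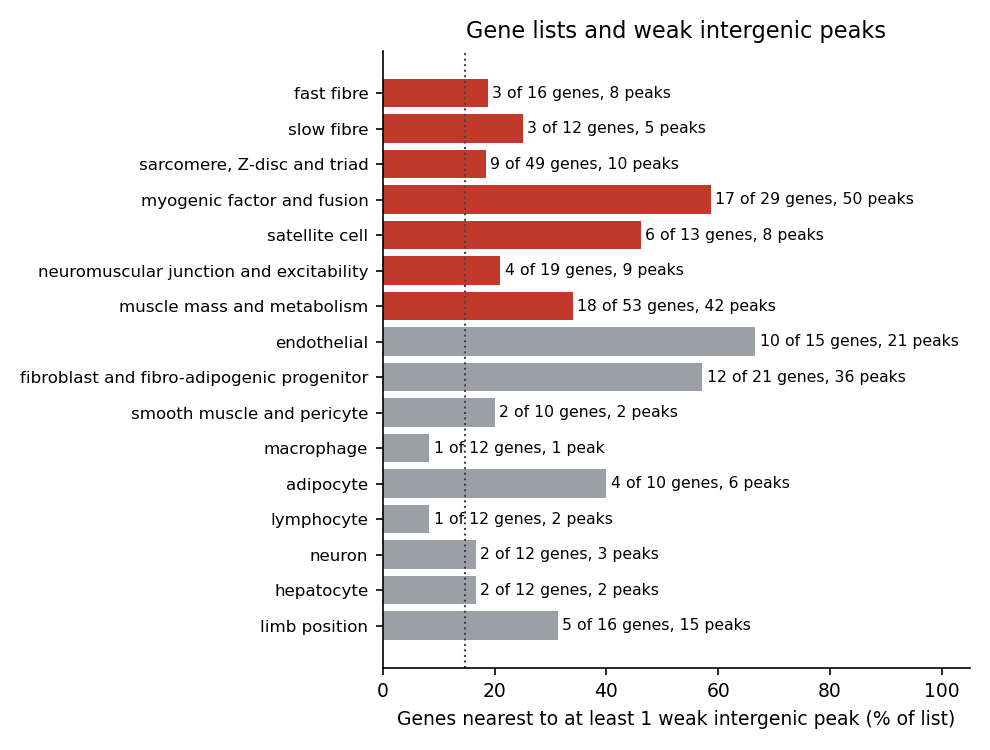
Share of the genes of each list (x axis, percent) that were the nearest protein-coding gene to at least 1 weak intergenic peak, with the number of genes and of peaks beside each bar. Muscle lists are red and other lists grey, and the dotted line marks the 14.7% of all autosomal coding genes; endothelial genes (10 of 15) and myogenic factors (17 of 29) stand highest and lymphocyte and macrophage genes (1 of 12 each) lowest.

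Among the muscle lists the regulators had the most members and the contractile genes few, in little eligible sequence. Fast and slow fibre genes had 40.6 and 39.8 members per Mb, but in 0.197 and 0.126 Mb and from 8 and 5 members, against 12.9 per Mb in 3.86 Mb beside myogenic factors and 9.85 per Mb beside sarcomere genes. The list of myogenic factors and fusion genes had 17 of 29 genes with a member and 50 members, 40 of them overlapped in both pools. Zfp36l1, an RNA-binding protein that promotes decay of its target RNAs, had 7 members, all 98680 bp or more downstream of the TSS.

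Eya1 and Eya4, transcriptional co-activators of muscle development, had 2 and 5 members, all overlapped in both pools. The highest near Eya4 (chr10:23541961-23543210) had a signal value of 18.25, with 21.7 in pool E and 15.4 in pool F, and lay 191575 bp upstream. Near Tbx4, a T-box factor of hindlimb identity, all 3 members lay downstream at 28718 to 98743 bp. They had signal values of 18.4, 13.5 and 11.7, and the highest (chr11:85925071-85926782) had 23.3 in pool E and 17.6 in pool F. The highest is near the top of the range that the rule admits, and the strongest peak at the Tbx4 promoter itself had 19.5.

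Myod1, which encodes the myogenic determination factor MyoD, had 2 members upstream, both overlapped in both pools. The nearer, 5374 bp from the TSS (chr7:46370864-46371251), had a signal value of 3.13, with 3.27 in pool E and 4.32 in pool F. The farther, at 38452 bp (chr7:46337646-46338203), had 5.45, with 5.22 in pool E and 5.34 in pool F. Mef2c had 4 members at 62448 to 561014 bp, Mef2a 2 and Mef2d 1, and all 7 were overlapped in both pools; MEF2 proteins act with MyoD family factors at muscle genes. Sox6, a repressor of slow-fibre genes, had 3 members that pool E alone overlapped, with signal values of 3.06 to 4.54. Mymx, which encodes the fusion peptide myomixer and had no peak at its own promoter, had 1 member at 24736 bp with a signal value of 10.2 (11.55 in pool E and 9.95 in pool F).

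The satellite cell list had 6 of 13 genes with a member. Those beside Pax7 and Pax3, the paired-box factors of muscle stem cells and precursors, were weak (2.42 and 2.85) and overlapped in pool E alone. Hey1, a Notch target, had a member at 50309 bp with a signal value of 13.1 (11.8 in pool E and 14.15 in pool F). Spry1, an inhibitor of receptor tyrosine kinase signalling, had 2 members within 17175 bp, both overlapped in both pools.

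Fast fibre genes had 8 members beside 3 of 16 genes. Tpm1, α-tropomyosin, had the highest (chr9:67012462-67013880), with a signal value of 15.2, 17.6 in pool E and 14.0 in pool F. Myh2, the heavy chain of type IIa fibres, had 4 members between 26105 and 30481 bp upstream, with signal values of 7.45, 6.31, 4.61 and 2.57. These 4 peaks lay in pairs with gaps of 175 and 103 bp, and within each pair at least 1 pool had a single peak value for both. No member was nearest to Myh1 or Myh4, the heavy chains of the faster fibre types. The rule itself limits this count, since the median eligible sequence of the fast fibre genes was 0 kb. Weak peaks nearest to Myh1 and Myh4 were present, but lay within 5000 bp of a TSS or in a gene body. Among slow fibre genes 3 of 12 had a member. Myl2, the regulatory light chain of slow fibres, had a member 15113 bp upstream (chr5:122085143-122086169) with a signal value of 14.3, above the 6.91 at its own promoter. Mybpc1, slow myosin-binding protein C, had 2 members upstream with 8.21 and 5.55, and its promoter had 10.1. The Atp2a2 members, near the slow-fibre calcium pump SERCA2, were weak (2.51 and 3.25) and overlapped in pool F alone.

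Of the 49 genes of sarcomere, Z-disc and triad, 9 had 10 members. Des, the intermediate filament desmin, had one 15315 bp upstream that was 2454 bp wide, with a signal value of 14.0 (16.9 in pool E and 11.8 in pool F). Ankrd1, a stress-inducible ankyrin repeat protein, had 8.02 at 9530 bp, above the 6.295 of its own promoter. At the neuromuscular junction, Chrna1, the α-subunit of the acetylcholine receptor, had 2 members downstream with 5.64 and 4.69, about the 4.61 of its promoter. Ache, acetylcholinesterase, had a member 19187 bp upstream with 12.3 (14.5 in pool E and 10.97 in pool F). Kcnj2, an inward-rectifier potassium channel, had 4 members between 20950 and 539268 bp downstream, the highest with 12.7.

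In the list of muscle mass and metabolism, 18 of 53 genes had 42 members. Maf, a large Maf transcription factor, had 10, all downstream and spread from 28326 to 349056 bp, with 8 overlapped in both pools. The highest (chr8:115473672-115474826) had a signal value of 16.1, with 17.1 in pool E and 17.3 in pool F, and the other 9 had at most 8.59. Foxo1, a forkhead factor of muscle wasting, had 4 members. The nearest lay 10367 bp upstream (chr3:52257769-52258787) with 18.6 (22.85 in pool E and 17.6 in pool F), and another lay 332594 bp downstream with 15.6. Trim63, the ubiquitin ligase MuRF1 and a target of FOXO factors, had 2 members upstream with 10.7 and 9.54. Nr4a1, an orphan nuclear receptor, had a member 2064 bp wide at 12482 bp upstream with 14.6.

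Of the weak intergenic peaks, 3094 of 5404 had another one within 50 kb. Members at most 50 kb apart were joined, which gave 2310 single members, 672 pairs and 450 clusters of 3 or more. The clusters held 1750 members (32.4%) and spanned a median of 38.8 kb. Part of this is peaks that lie side by side: 696 members (12.9%) had another member within 1000 bp, and joining those left 5033 regions. The next replicated peak of any class lay within 5000 bp of 1559 members (28.85%), and for 1235 of these it was another weak intergenic peak. The other weak peaks had such a neighbour more often. The shares were 47.9% of gene-body peaks, 53.9% of those within 1000 bp of a TSS and 73.9% of those farther out but within 5000 bp. A strong peak lay within 5000 bp of 4.77% of the members and within 50 kb of 53.3%. Members in clusters of 3 or more and single members had the same support in both pools (78.8% of each), and the nearest gene was marked for 91.6% (90.2 to 92.8%) of the clustered and 86.15% (84.7 to 87.5%) of the single members.

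The largest cluster held 12 members within 16.6 kb between Ntsr2 and Lpin1, a phosphatidate phosphatase gene (chr12:16630702-16647334), with signal values of 3.17 to 12.6. Joined within 1000 bp, it was 3 regions. The next held 11 members near Mcl1, an anti-apoptotic BCL2 relative, Adamtsl4 and Ecm1, and was also 3 regions. A cluster of 10 members, all with Map3k1 as the nearest gene, spread over 102.4 kb (chr13:111894687-111997135), formed 8 regions when joined, and had signal values of 2.80 to 10.9. A cluster of 9 near Ddit4, a stress-induced inhibitor of mTORC1, reached 17.2, and one of 8 between Etv4 and Meox1 reached 9.26.

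Of the clusters of 2 or more, 31 of 1122 (2.76%) had a gene of the muscle lists within 50 kb, as did 15 of the 450 clusters of 3 or more (3.33%) and 36 of the 2310 single members (1.56%). A cluster counted when any of its members lay that near, so larger clusters had more occasions to count and these shares cannot be compared. Of all members, 127 (2.35%) had a gene of the muscle lists within 50 kb. Within 50 kb of a muscle gene TSS, 126 member summits lay in 5.04 Mb of eligible sequence, which is 24.99 per Mb. Within 50 kb of any coding TSS the density was 10.04 per Mb, and 13.1 where that gene was marked.

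The largest of these clusters lay around Lbx1, a homeobox factor of migrating limb muscle precursors. Its 9 members spanned 152 kb (chr19:45131682-45283492), were 9 separate regions, and 6 were nearest to Lbx1 and 3 to Tlx1. The members nearest to Lbx1 had, in order along the chromosome, signal values of 17.5, 14.6, 4.57, 4.22, 3.91 and 5.17, and the highest had 20.3 in pool E and 14.9 in pool F. Both high members lay on the downstream side. A cluster of 7 near Pdik1l, Extl1 and Trim63 reached 10.7, and 5 of its members were overlapped in both pools. A further cluster of 7 upstream of Col1a1, a collagen gene of fibroblasts, reached within 50 kb of Sgca, α-sarcoglycan, at its near end, and 3 of its members were overlapped in both pools. The 6 members near Myh2 and Myh3, the embryonic heavy chain, spanned 40.1 kb but formed 3 regions. Clusters of 5 lay near Bhlhe41 and near Mef2a, and clusters of 4 near Lmod3, Spry1 and Chrna1. Clusters of 3 lay near Nr4a1, Pvalb, Atp2a2, Bmp4 and Smad7.

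**Figure D4:**
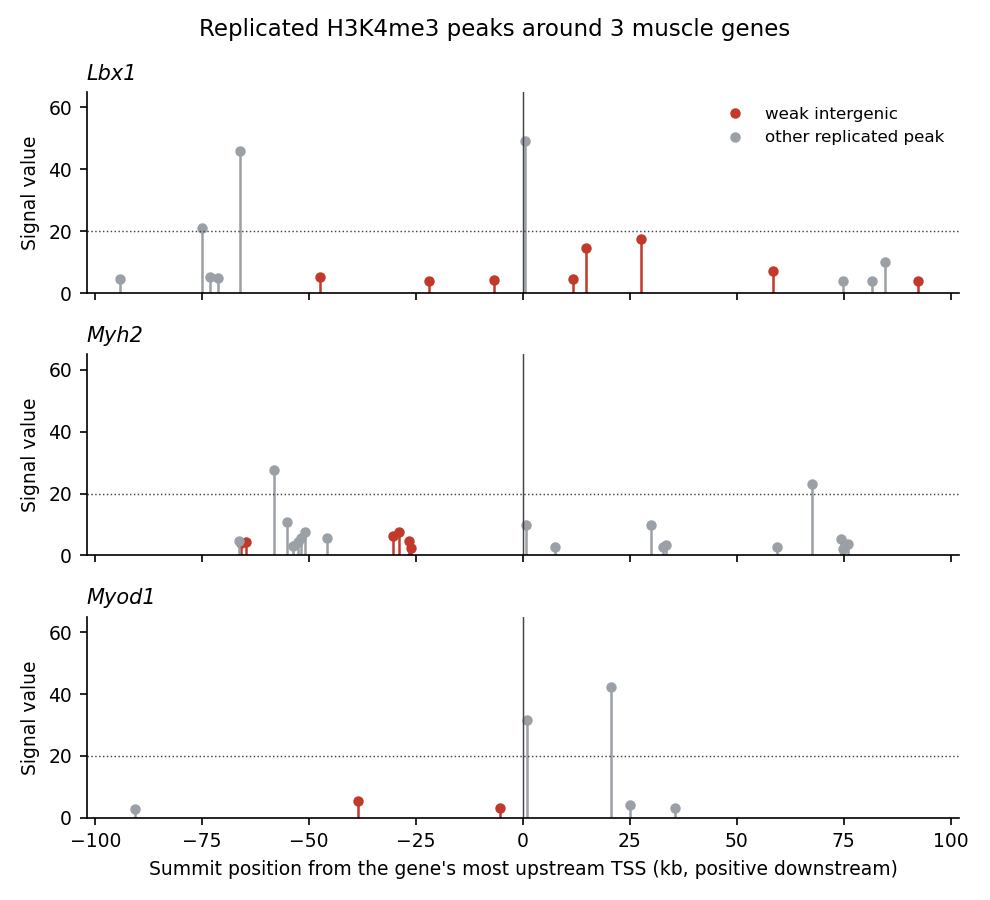
Signal value (y axis, authors' unit) of every replicated peak within 100 kb of the most upstream TSS of Lbx1, Myh2 and Myod1 (x axis, kb from that TSS, positive downstream); weak intergenic peaks are red, all other peaks grey, and the dotted line marks the threshold of 20. Lbx1 has a tall promoter peak (49.2) flanked by low red ones, with a red peak of 17.5 on the downstream side, Myh2 has a promoter peak of 9.83, 4 red peaks between 26105 and 30481 bp upstream and 2 more, nearest to Myh3, farther upstream, and Myod1 has 2 red peaks upstream.

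The sequence at the summits stood apart from eligible sequence. The median GC content of the 300 bp around the summit was 50% for the weak intergenic peaks (46 to 54% for the middle 50% of them), 49.3% for the weak gene-body peaks, 56% for the strong intergenic peaks and 40.3% for the 3468511 eligible windows of the same length. The median ratio of observed to expected CpG was 0.391 for the members, 0.309 for the weak gene-body peaks, 0.583 for the strong intergenic peaks and 0.134 for eligible windows. No CpG was present in 0.592% of member windows, against 22.3% of eligible windows. A CpG ratio of at least 0.75 with a GC content of at least 55%, a strict limit for high CpG content, was found in 87 members (1.61%), against 17.45% of strong intergenic peaks and 0.0387% of eligible windows. Members that would count as CpG islands at a looser limit were not counted. These 87 members had a median signal value of 10.5, against 4.98 for the others, and 94.3% (87.2 to 97.5%) of them were overlapped in both pools. Soft-masked repeats filled a median of 7.67% of a member's window, against 27.7% of an eligible window, and 2.28% of member windows were over 50% masked, against 32.6%. Eligible sequence kept its repeats, and whether reads can be placed there as well as elsewhere was not tested.

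**Figure D5:**
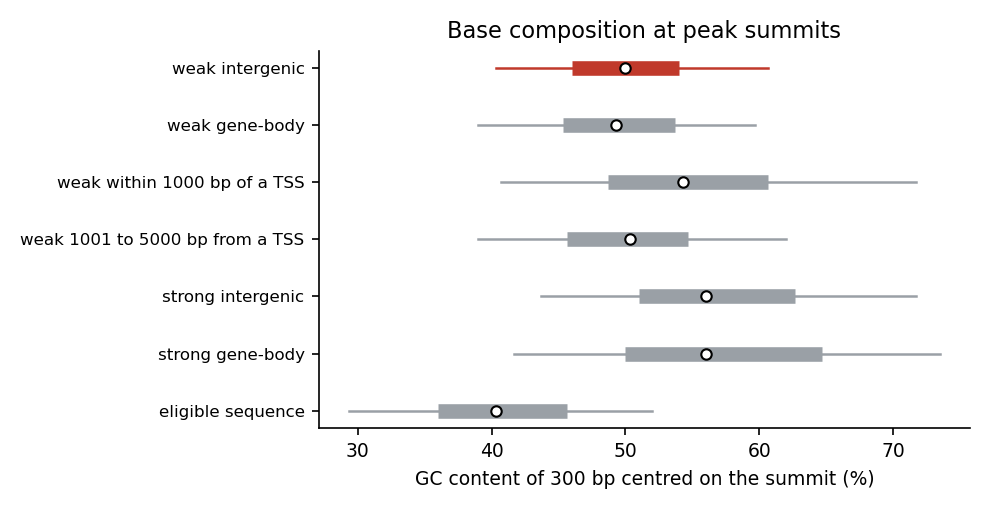
GC content (x axis, percent) of 300 bp centred on the summit for each class of peaks and of consecutive 300 bp windows of eligible sequence; circles are medians, thick bars run from the 25th to the 75th and thin lines from the 5th to the 95th percentile. Weak intergenic peaks (red) have a median of 50%, near the 49.3% of weak gene-body peaks and above the 40.3% of eligible sequence.

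Short motifs were counted on both strands of the same windows. The E-box CAGCTG was in 24.9% of members (23.7 to 26.0%), in 23.3% of weak gene-body peaks, in 21.4% of all replicated peaks and in 9.48% of eligible windows. The E-box CACCTG was in 17.4% of members, 22.4% of all peaks and 15.9% of eligible windows, so it did not follow CAGCTG. The GC box GGGCGG, typical of promoters, was in 14.2% of members, 37.15% of strong intergenic peaks, 28.0% of all peaks and 2.02% of eligible windows. The AP-1 motif TGACTCA was in 6.05%, 4.41% and 4.51% of members, all peaks and eligible windows, and the TEAD motif GGAATG in 18.04%, 14.4% and 16.2%. The MEF2 motif was in 4.89% of members, 2.85% of all peaks and 7.46% of eligible windows, and CCAAT in 29.5%, 24.05% and 43.5%. Members thus had a lower share of both than eligible sequence, whose GC content is lower. The core motif of CTCF, the insulator protein, was in 1.54% of members (1.24 to 1.90%), against 0.917% of all peaks and 0.142% of eligible windows. The part of base composition in these differences was not tested, for the motifs with higher shares in members as for those with lower ones. Of the 132 members nearest to muscle genes, 35 held CAGCTG (26.5%) and 6 the MEF2 motif (4.55%), about the shares of all members. A match of letters is a description of the sequence and does not show that a factor is bound.

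RefSeq lists enhancers of the VISTA collection, which were tested in transgenic mouse embryos. Of these, 221 lay over 5000 bp from every TSS and outside gene bodies. A weak intergenic peak overlapped 53 (24.0%, 18.8 to 30.0%) and a strong intergenic peak 14, but there were 5404 weak and only 533 strong intergenic peaks. Counted by peak, 1.18% of members (0.929 to 1.51%) overlapped a RefSeq enhancer of any kind, about the 1.10% of weak gene-body peaks (0.899 to 1.34%). These 221 enhancers cover 522 kb and held 58 member summits, 111 per Mb, against 5.16 per Mb of all eligible sequence.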

How the data were processed

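Per the labels, H3K4me3 ChIP-seq was made from 2 pools (E and F) of 2 gastrocnemius biosamples each, as 2 technical libraries per pool. The authors deposited narrowPeak lists of pool E, of pool F, of both pools together (pooled) and of replicated peaks, all on mm10. In these deposited lists each peak has a signal value, a −log10 q-value and a summit offset. Which aligner and peak caller were used, and what the signal is relative to, is not given in the sources used here. Depth is unknown, since no list holds read counts.

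Genes and TSSs came from GENCODE M21, sequence, RefSeq genes and enhancers from the RefSeq assembly GRCm38.p6. Distances to genes were taken from the summit, and the rule's 5000 bp from the peak edges. Overlap needed 1 bp. Eligible sequence was summed base by base without N and with repeats kept, so all densities and shares of it include repeats. All values are counts or shares of the deposited lists with 95% Wilson intervals (Python 3.11.15, scipy 1.17.1, numpy 2.4.6), and no test was made, because the rule used the signal value and the study has 1 condition. Neighbouring regions are not independent. Overlap and distance steps were checked on simulated intervals. The 16 gene lists, 7 of them of muscle, and all regions were chosen with earlier results of these data known. Named regions were those with the highest signal values, CpG ratios, widths and distances, up to 6 per muscle list and 2 per other list, and the clusters with most members; others are named by their counts after their values were seen. Alternatives were 14 other settings and 2 added after seeing the data. Some regions are not reported here.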

Additional observations from a re-analysis of the deposited data

How the results depend on the processing

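No paired analysis was possible because the results come from no test and no list holds a value per library. The share of members overlapped in both pools was 78.1% as reported, 73.4% with signal values under 10, 71.4% from the pooled list, 74.9% when at least 50% of a member had to be overlapped, and 79.4% with members within 1000 bp of each other counted once. The share in clusters of 3 or more, 32.4% as reported, was 26.3% with signal values under 10, 35.3% and 26.9% with TSS distances over 2500 and 10000 bp, 44.0% when the rule used protein-coding genes only, 35.9% from the pooled list, 21.2% and 46.3% when members were joined within 25 and 100 kb, 26.25% with neighbours within 1000 bp counted once, 25.5% when RefSeq genes and TSSs were kept clear of as well, and 30.83 to 32.01% from the list of 1 pool. Clusters with a muscle gene within 50 kb numbered 51 with protein-coding genes only and 22 with TSS distances over 10000 bp, against 31 as reported. The last 2 alternatives (neighbours counted once, RefSeq left out) were chosen after seeing the data. The other 62 values stayed within the reported interval, within 1.5 times or within the spread of GC content. These limits are wide. The number of members, 5404 as reported, was 8093 with protein-coding genes only and 4073 with TSS distances over 10000 bp. The median distance to a coding TSS, 38216 bp as reported, was 28294 bp by gene body and 47849 bp with TSS distances over 10000 bp.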

Other observations

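Of the 221 VISTA enhancers that lie over 5000 bp from every TSS and outside gene bodies, members overlapped 53. By the tissue in which the element was active in the embryo, members overlapped 12 of 66 limb elements (18.2%, 10.7 to 29.2%), 7 of 43 heart elements (16.3%, 8.12 to 29.97%), 20 of 55 hindbrain elements (36.4%, 24.9 to 49.6%), 15 of 41 neural tube elements (36.6%, 23.6 to 51.9%) and 17 of 64 forebrain elements (26.6%, 17.3 to 38.5%). They also overlapped 18 of 62 midbrain elements (29.0%, 19.2 to 41.3%) and 2 of 8 somite elements. Of the elements without limb activity 41 of 155 (26.5%, 20.1 to 33.9%) were overlapped, an interval that meets that of the limb elements. The highest member at any VISTA element had a signal value of 18.8 (19.7 in pool E and 18.8 in pool F). It lay at mm1111 near Ndfip2, an element active in hindbrain, midbrain, forebrain and branchial arch. The limb element with the highest member, mm1473 near Nedd4, carried a peak 3227 bp wide with a signal value of 18.6 (21.7 in pool E and 16.8 in pool F). A heart element near D5Ertd579e, mm1054, carried one of 17.5 (16.9 in pool E and 18.8 in pool F). A single element outside VISTA was overlapped, a Hedgehog-responsive enhancer far from Hhip that RefSeq describes as active in C2C12 myoblasts, with a signal value of 10.6 (12.6 in pool E and 9.265 in pool F).

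Some members lay far from any coding gene. There were 80 over 500 kb from a coding TSS, and 78.75% of them (68.6 to 86.3%) were overlapped in both pools, against 79.2% (77.75 to 80.6%) of the members within 50 kb. The farthest, near Cntnap5b, lay 1649597 bp away and had a signal value of 5.03 (6.42 in pool E and 5.51 in pool F). The widest member, with a width of 5806 bp, lay 332212 bp upstream of D630036H23Rik and had a signal value of 19.8 and a CpG ratio of 0.738. A member 6869 bp upstream of Fcgr1, an Fc receptor gene of macrophages, had a signal value of 18.95 (21.6 in pool E and 13.25 in pool F), while the peak at the promoter of that gene had 2.62.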
